A study of Mus musculus with 8 samples.

Results

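Prosaposin (*Psap*) and 8 genes of lysosomal sphingolipid degradation (*Galc*, *Asah1*, *Smpd1*, *Gm2a*, *Gla*, *Arsa*, *Glb1* and *Neu1*) were examined in stroke infarcts of mice given cyclodextrin or vehicle. They were taken by symbol from the 46078 Ensembl genes in the count tables. All 9 matched 1 identifier each, and all 9 were among the 14736 genes that passed the filter on low counts and were tested. The mice were wild type male C57BL/6J animals aged 18 months, and every animal had undergone DH stroke, a model that joins occlusion of the distal middle cerebral artery with hypoxia. From 1 week after stroke, 4 mice received subcutaneous sterile PBS (vehicle) and 4 received 4 g/kg 2-hydroxypropyl-β-cyclodextrin (HPβCD, labelled HPBCD), 3 times per week for 6 weeks. Infarcts were cut out by eye 7 weeks after stroke and their polyadenylated RNA was sequenced as bulk tissue. Libraries held 16.6 to 32.9 M gene counts, and the fewest reads for any of the 9 genes in any library were 555, for *Arsa*.

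Sphingolipids such as sulfatide, galactosylceramide and sphingomyelin are major lipids of myelin and cell membranes, and they are broken down inside lysosomes. The hydrolases work on lipids held in internal membranes, so several of them need small lipid-binding helper proteins. *Psap* encodes the precursor that is cut into saposins A, B, C and D, each of which helps particular enzymes. Loss of single members of this pathway causes lysosomal storage diseases, among them Krabbe disease (*Galc*), metachromatic leukodystrophy (*Arsa*), Farber disease (*Asah1*), Niemann-Pick disease types A and B (*Smpd1*) and Fabry disease (*Gla*).

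*Psap* showed the largest difference of the group. It measured 3784, 5386, 4907 and 5887 CPM (counts per 1 M of the TMM-scaled library total) in vehicle animals 1 to 4, and 13288, 13462, 17274 and 9185 CPM in HPβCD animals 1 to 4. Every HPβCD value was above every vehicle value, and animal 3 was the highest and animal 4 the lowest of the HPβCD group. The mean rose from 4991 ± 898 to 13302 ± 3304 CPM (SD, n = 4 each), which is 1.41 on the log2 scale (SE 0.26; edgeR quasi-likelihood test, Benjamini-Hochberg adjusted p = 0.0483). *Psap* (ENSMUSG00000004207) lies on chromosome 10 at 60277627 to 60302597, plus strand, in build GRCm38. Its call lay close to the threshold: by edgeR it was lost without vehicle animal 1 (log2 fold change 1.31, edgeR adjusted p = 0.152), vehicle animal 4 (1.52, adjusted p = 0.0636), HPβCD animal 1 (1.42, adjusted p = 0.156), HPβCD animal 2 (1.41, adjusted p = 0.175) or HPβCD animal 3 (1.27, adjusted p = 0.0899). In these fits edgeR called 4 genes of all tested without HPβCD animal 1 and 0 in the others, so the loss was not particular to *Psap*. Over 17 alternative fits the log2 fold change of *Psap* stayed between 1.25 and 1.56. Its adjusted p ranged from 4.04e-06 (DESeq2) to 0.175.

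**Figure D1:**
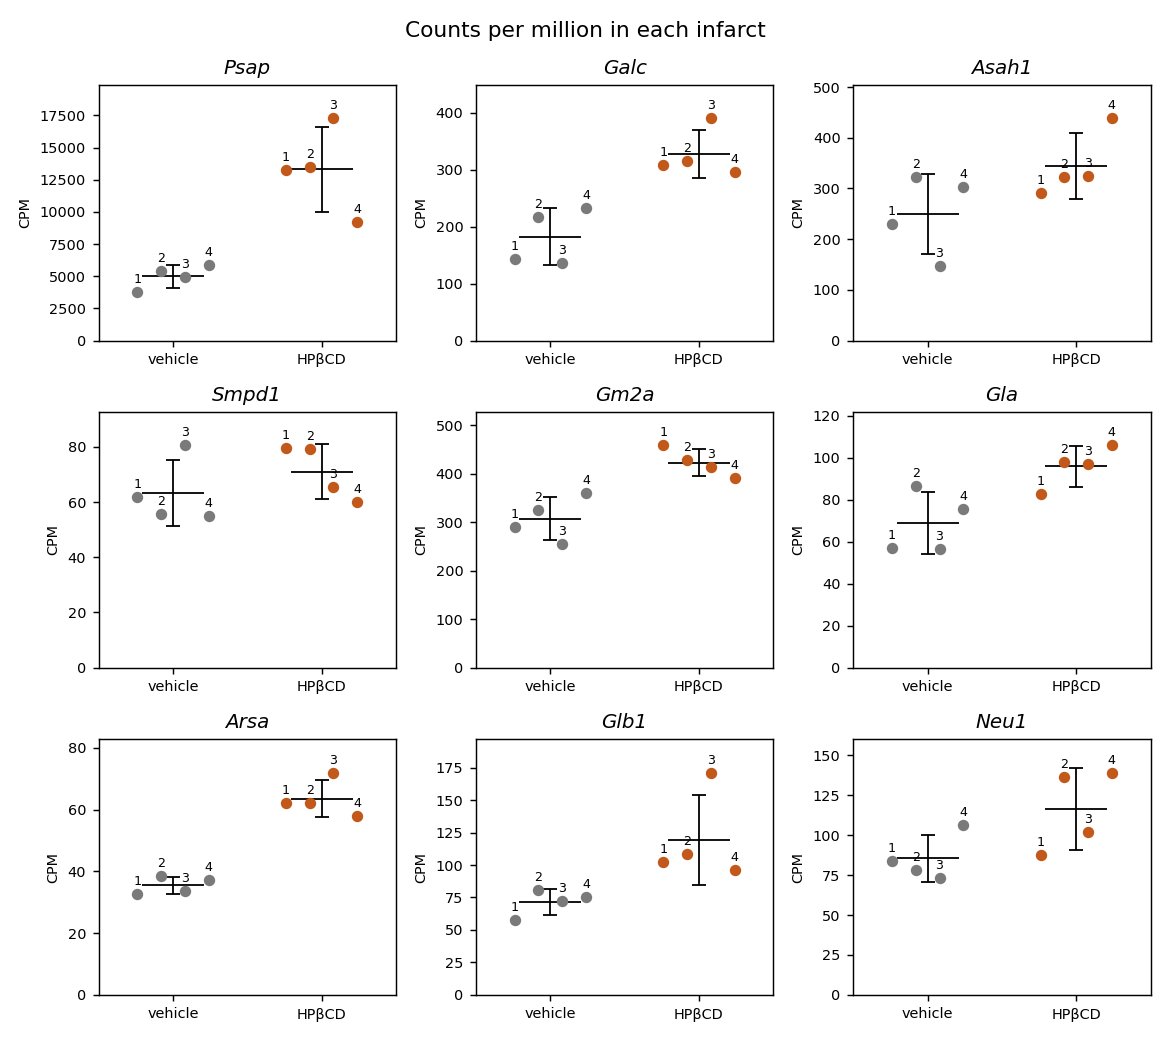
CPM (linear axes from 0) of each of the 9 genes in the 4 vehicle (grey) and 4 HPβCD (orange) infarcts, with animal numbers beside the points and the mean ± SD in black. The groups do not overlap for *Psap*, *Galc*, *Gm2a*, *Arsa* and *Glb1*, and they overlap for *Asah1*, *Smpd1*, *Gla* and *Neu1*.

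Levels of the 9 genes were compared with each other only after division by exon length, as TPM (length-corrected values that share the same sum in every library). *Psap* stood at 4285 ± 1026 TPM in vehicle and 13851 ± 4234 TPM in HPβCD infarcts (SD, n = 4 each). It ranked between position 17 and position 26 of all genes by TPM in the vehicle libraries and between position 4 and position 8 in the HPβCD libraries. *Asah1* and *Gm2a* followed at 177 ± 70.3 and 176 ± 39.6 TPM in vehicle infarcts, which did not differ beyond their spread. *Arsa* was the lowest of the 9, at 22.7 ± 3.99 TPM in vehicle and 49 ± 7.69 TPM in HPβCD infarcts. The mean TPM of *Psap* was thus 24.2 times that of *Asah1* and 189 times that of *Arsa* in vehicle tissue. *Psap* made up 85.5% to 89.5% of the summed TPM of the 9 genes in the vehicle libraries and 89.8% to 94.4% in the HPβCD libraries. The place of *Galc* depended on the transcript model. It measured 29.2 TPM in vehicle infarcts with the union of its exons (14879 bases) and 84 TPM with its longest transcript (4439 bases), which moved it from position 8 to position 4 of the 9.

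Across the 9 genes, all 9 log2 fold changes were above 0, a sign found in 45.9% of the genes tested. edgeR called 2 of the 9 higher, *Psap* and *Arsa*, against 1.17% of all genes called higher and 0.774% called lower at an adjusted p of 0.05. DESeq2 called 5 of the 9 higher (background 6.1%), adding *Galc*, *Gm2a* and *Glb1*, and limma-voom with sample weights called 6 (background 11.1%), adding *Smpd1* to those 5. In 5 of the 9 genes all HPβCD values exceeded all vehicle values, which held for 8.77% of the genes tested. The median log2 fold change of the 9 genes was 0.47, and that of all tested genes was -0.05. Unadjusted p-values under 0.05 were found for 7 of the 9 genes and for 27.8% of all genes tested. As this is bulk tissue, more cells of a type and more RNA per cell cannot be told apart.

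**Figure D2:**
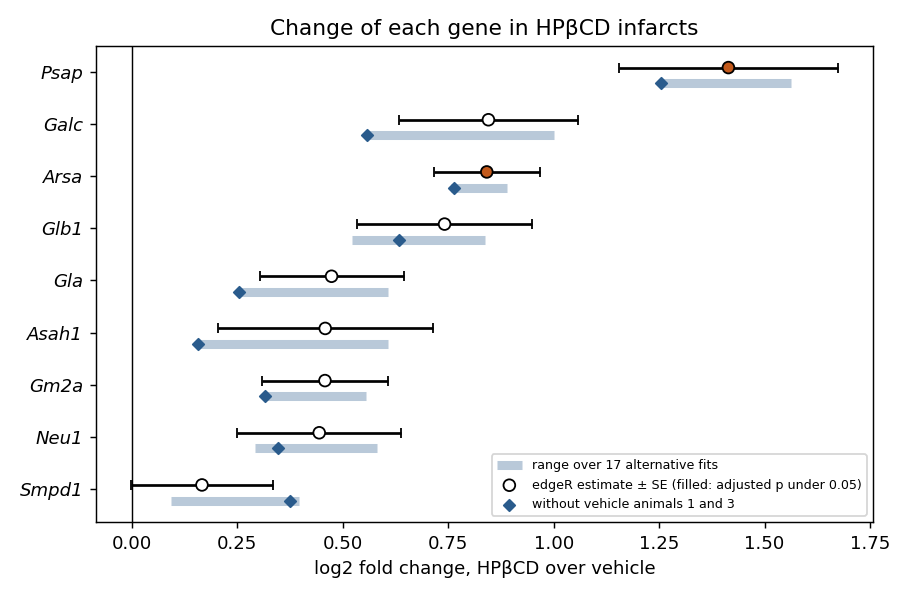
Log2 fold change (HPβCD over vehicle) of each gene by edgeR with its SE, filled where the adjusted p was under 0.05, above a bar that spans 17 alternative fits and a diamond for the fit without vehicle animals 1 and 3. *Psap* and *Arsa* are filled, all 9 estimates and all bars lie above 0, and *Smpd1* has the smallest estimate at 0.17.

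The enzymes that act on the galactolipids of myelin depend on saposins. *Arsa* encodes arylsulfatase A, which removes the sulfate of sulfatide after saposin B has lifted the lipid from the membrane. *Arsa* measured 32.6, 38.5, 33.6 and 37.2 CPM in vehicle animals 1 to 4 and 62.2, 62, 72 and 58.1 CPM in HPβCD animals 1 to 4. The groups were far apart compared with their spread, and *Arsa* rose from 35.5 ± 2.79 to 63.6 ± 5.94 CPM (SD, n = 4 each), or by 0.84 on the log2 scale (SE 0.12; adjusted p = 0.0405 by edgeR). Its call was lost without vehicle animal 1 (0.81, edgeR adjusted p = 0.149), vehicle animal 4 (0.88, adjusted p = 0.0635), HPβCD animal 1 (0.86, adjusted p = 0.155), HPβCD animal 2 (0.86, adjusted p = 0.172) or HPβCD animal 3 (0.78, adjusted p = 0.0899), within a range over 17 alternatives of 4.04e-06 to 0.172. In the fits without 1 of these animals edgeR called 0 genes of all tested, or 4 without HPβCD animal 1. *Arsa* lies on chromosome 15 at 89472476 to 89477425, minus strand, and 18.8% of its exonic bases are overlapped by the antisense gene *C230037L18Rik*. That gene held at most 0.679 CPM in any library, or at most 2.08% of the *Arsa* value.

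*Galc* encodes galactosylceramidase, which removes galactose from galactosylceramide and psychosine with the help of saposins A and C. It measured 143, 217, 137 and 233 CPM in vehicle animals 1 to 4 and 308, 315, 390 and 296 CPM in HPβCD animals 1 to 4. The groups did not overlap, and the 4 vehicle values were spread widely, with animals 1 and 3 low. The means were 182 ± 49.6 and 327 ± 42.5 CPM (SD, n = 4 each). The log2 fold change of 0.85 (SE 0.21) missed the threshold by edgeR (adjusted p = 0.0658) and passed it by DESeq2 (adjusted p = 0.00656, range over 17 alternatives 0.00656 to 0.19). *Galc* lies on chromosome 12 at 98202294 to 98259459, minus strand.

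*Asah1* encodes acid ceramidase, the enzyme that turns ceramide into sphingosine and that saposin D assists. Values were 230, 322, 148 and 302 CPM in vehicle animals and 292, 323, 324 and 438 CPM in HPβCD animals, in the order of animals 1 to 4. HPβCD animal 1 lay below vehicle animals 2 and 4, so the groups overlapped. On the log2 scale the difference was 0.46 (SE 0.25; adjusted p = 0.276 by edgeR). *Smpd1* encodes acid sphingomyelinase, which cleaves sphingomyelin and carries a saposin-like domain of its own. It measured 62, 55.7, 80.5 and 55 CPM in vehicle and 79.6, 79, 65.5 and 60 CPM in HPβCD animals 1 to 4. Its highest value of all 8 was that of vehicle animal 3, and its log2 fold change of 0.17 (SE 0.17) was within the spread (edgeR adjusted p = 0.566).

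The remaining members act on glycolipids and on ganglioside chains. *Glb1* encodes lysosomal β-galactosidase, which takes the terminal galactose from the ganglioside GM1. It measured 57.9, 80.4, 72.2 and 75.4 CPM in vehicle animals 1 to 4 and 102, 109, 171 and 96.4 CPM in HPβCD animals 1 to 4. The groups did not overlap, and HPβCD animal 3 stood above the rest. The log2 fold change was 0.74 (SE 0.21), with adjusted p-values of 0.0785 by edgeR and 0.0179 by DESeq2 and a range over 17 alternatives of 0.0179 to 0.198. *Tmppe*, a gene on the same strand, covers 5.48% of the exonic bases of *Glb1* and measured 24.9 to 37.4 CPM in vehicle and 35.4 to 44.1 CPM in HPβCD libraries. Reads in the shared stretch cannot be assigned to either gene.

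*Gm2a* encodes the GM2 activator, a lipid-binding helper that presents the ganglioside GM2 to β-hexosaminidase A. It measured 289, 326, 255 and 359 CPM in vehicle and 458, 427, 413 and 391 CPM in HPβCD animals 1 to 4. All 4 HPβCD values were above all vehicle values, with HPβCD animal 1 the highest here. The log2 fold change was 0.46 (SE 0.15), with adjusted p-values of 0.0976 by edgeR and 0.0328 by DESeq2 and a range over 17 alternatives of 0.0328 to 0.245.

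*Gla* encodes α-galactosidase A, which degrades globotriaosylceramide. It measured 57, 86.6, 56.7 and 75.6 CPM in vehicle and 82.5, 97.7, 97.2 and 106 CPM in HPβCD animals 1 to 4. Only HPβCD animal 1 fell below the highest vehicle value (log2 fold change 0.47, SE 0.17, edgeR adjusted p = 0.118). *Neu1* encodes lysosomal sialidase, which removes sialic acids and works in a complex with the *Glb1* product and cathepsin A. It measured 84.1, 78.2, 73.1 and 107 CPM in vehicle and 87.4, 137, 102 and 139 CPM in HPβCD animals 1 to 4. HPβCD animals 2 and 4 were above all vehicle animals (log2 fold change 0.44, SE 0.19, edgeR adjusted p = 0.177).

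The order of the animals was not the same for all members. HPβCD animal 3 was the highest of its group for *Psap*, *Galc*, *Arsa* and *Glb1*, and animal 4 was the lowest for these 4 genes and for *Smpd1* and *Gm2a*. For *Asah1*, *Gla* and *Neu1* animal 4 was the highest and animal 1 the lowest. In the vehicle group, animal 1 or animal 3 was the lowest for 8 of the 9 genes, and *Smpd1* was lowest in animal 4.

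Each of the other 8 genes was then set against *Psap* within the same library, which removes the scaling of the library. The mean log2 ratio to *Psap* was lower in HPβCD than in vehicle infarcts for all 8, by between 0.52 for *Galc* (HPβCD minus vehicle, -0.52) and 1.22 for *Smpd1* (-1.22). The ratios of the groups did not overlap for *Smpd1*, *Gm2a*, *Gla* and *Glb1*. For *Gm2a* the log2 ratio was -3.71, -4.05, -4.27 and -4.03 in vehicle animals 1 to 4 and -4.86, -4.98, -5.39 and -4.55 in HPβCD animals 1 to 4. For *Arsa* the groups touched, as vehicle animal 4 and HPβCD animal 4 both stood at -7.31. HPβCD animal 4 had the ratio nearest to the vehicle animals for all 8 genes. Without vehicle animals 1 and 3, all 8 differences kept their sign, from -0.46 for *Arsa* to -1.08 for *Asah1*. As *Psap* was the member with the largest rise, these ratios restate on an internal scale that the other members differed less between the groups. The log2 fold change of *Psap* was above that of 99.6% of all genes tested, so a lower ratio to *Psap* is not particular to these members. The share of all genes whose ratios to *Psap* do not overlap between the groups was not computed.

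**Figure D3:**
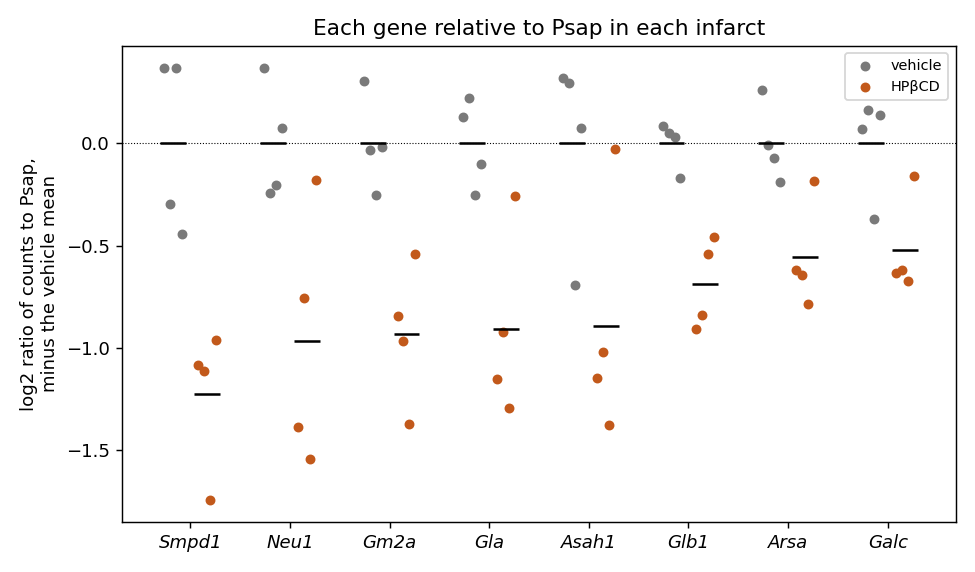
Log2 ratio of the counts of each gene to those of *Psap* in the same library, minus the vehicle mean, for the 4 vehicle (grey) and 4 HPβCD (orange) infarcts, with animals 1 to 4 from left to right and bars at the group means. All 8 HPβCD means lie below 0, and HPβCD animal 4 lies above its own group's mean for all 8 genes.

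By a fixed measure of likeness, the SD over the 8 libraries of the log2 CPM ratio to *Psap* among 9550 other genes averaging 10 CPM or more, the 5 genes that tracked *Psap* most closely were *Stab1* (SD 0.13), *Aebp1* (0.14), *Gpnmb* (0.14), *Pcolce* (0.14) and *Dpp7* (0.15). The median SD over all these genes was 0.84. *Stab1* encodes a scavenger receptor of macrophages and sinusoidal endothelium, and *Gpnmb* a glycoprotein of lipid-laden macrophages. *Aebp1* and *Pcolce* encode proteins of collagenous matrix, and *Dpp7* a lysosomal dipeptidyl peptidase. Of the other members, *Galc* ranked at position 149, *Arsa* at 160 and *Glb1* at 238. The rest ranked lower, *Gm2a* at 1017, *Gla* at 1193, *Neu1* at 2263, *Asah1* at 2343 and *Smpd1* at 3210. The libraries share their treatment difference in this measure, so it describes these 8 libraries only.

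Many lysosomal genes carry the E-box-like letters TCACGTGA, the core of the element bound by TFEB and related factors, near their start. Promoter windows of 250 bases before to 50 bases after the RefSeq start (GRCm38.p6) were held for 8 of the 9 genes. There was no entry for *Asah1*. The letters CACGTG, on either strand since they read the same on both, were found in 3 of these 8 genes, *Arsa*, *Gla* and *Glb1*, and in 8.09% of all 27025 genes with a window (7.15% of 32851 windows). In each of the 3 genes the longer form TCACGTG was met (4.29% of all genes, either strand), and *Gla* held the full TCACGTGA at 2 places (1.12% of all genes held it at least once). The TCACGTG form contains CACGTG, so these shares overlap. Stretches upstream of the start are given for the 3 genes with a match and for *Psap*, the member that rose most, in which no match was found in either of its windows. They read 5′ to 3′ on the strand of the gene, with the matched letters in capitals.
Arsa (chr15:89477425-89477514, minus strand): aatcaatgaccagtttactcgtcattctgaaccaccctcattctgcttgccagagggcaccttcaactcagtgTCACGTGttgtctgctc
Glb1 (chr9:114400988-114401077, plus strand): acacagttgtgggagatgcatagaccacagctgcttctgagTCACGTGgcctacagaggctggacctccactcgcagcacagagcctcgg
Gla (chrX:134601166-134601255, minus strand): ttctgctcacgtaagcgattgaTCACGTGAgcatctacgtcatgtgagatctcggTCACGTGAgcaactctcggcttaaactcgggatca
Psap (chr10:60277538-60277627, plus strand): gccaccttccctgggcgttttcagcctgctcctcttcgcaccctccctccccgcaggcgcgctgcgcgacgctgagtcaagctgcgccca

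The matches begin 17 bases before the start in *Arsa*, 49 in *Glb1*, and 228 and 195 in *Gla*. The log2 fold changes of the 3 genes with a match were 0.84 (*Arsa*), 0.74 (*Glb1*) and 0.47 (*Gla*), and those of the 5 genes without a match were 1.41 (*Psap*), 0.85 (*Galc*), 0.46 (*Gm2a*), 0.44 (*Neu1*) and 0.17 (*Smpd1*). With a match, edgeR called 1 gene of 3, and without a match 1 gene of 5, whereas 1.17% of all genes tested were called higher. So few genes allow no comparison of those with and without a match. Of the factors themselves, *Tfeb*, *Tfe3* and *Mitf* averaged 14, 46.3 and 51.6 CPM in vehicle and 17.4, 58.8 and 60 CPM in HPβCD infarcts, and 0 of the 4 genes of this family (with *Tfec*) passed the edgeR or DESeq2 threshold (2 had an unadjusted edgeR p under 0.05, against 27.8% of all genes). Their log2 fold changes had a median of 0.33.

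The enzymes and helpers that work beside these 9 genes in the lysosome were listed as 14 partners. Of these, 13 had a log2 fold change above 0, and 3 were called higher and 0 lower by edgeR (DESeq2, 9 higher and 0 lower), with a median of 0.74. Over all genes tested, 45.9% were above 0, and 1.17% were called higher by edgeR and 6.1% by DESeq2. *Galns*, a sulfatase of keratan sulfate, rose from 52.9 ± 5.53 to 110 ± 23.3 CPM (SD, n = 4 each; log2 fold change 1.06, edgeR adjusted p = 0.0432). *Arsb*, the sulfatase of dermatan sulfate, rose from 70 ± 4.12 to 120 ± 13.2 CPM (0.78, edgeR adjusted p = 0.0427). *Scarb2*, a lysosomal membrane protein and among the partners with the highest CPM, was not called (0.36, edgeR adjusted p = 0.181). *Hexa* and *Ctsa*, named after their values were seen, did not pass the edgeR threshold and passed that of DESeq2. *Hexa*, the α chain of β-hexosaminidase A, had a log2 fold change of 0.86 (edgeR adjusted p = 0.0545, DESeq2 0.00102), and *Ctsa*, cathepsin A, of 0.71 (0.0659, 0.00486).

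Among 15 genes for the sorting, uptake, cleavage and reception of prosaposin, 12 had a log2 fold change above 0 and 2 were called higher and 0 lower by edgeR (median 0.57). Over all genes tested, 45.9% were above 0, and edgeR called 1.17% higher and 0.774% lower. DESeq2 called 8 of the 15 higher and 2 lower, against 6.1% and 11.4% of all genes. *Igf2r*, a mannose 6-phosphate receptor that carries enzymes to lysosomes, rose from 150 ± 29.7 to 296 ± 42 CPM (0.98, edgeR adjusted p = 0.0483). *M6pr* and *Sort1*, further sorting receptors named after their values were seen, were called by neither edgeR nor DESeq2, and their groups overlapped. The estimates were 0.18 for *M6pr* (edgeR adjusted p = 0.67) and -0.41 for *Sort1* (edgeR adjusted p = 0.338). *Lrp1*, which takes up secreted prosaposin, rose from 788 ± 174 to 1725 ± 368 CPM (1.13, edgeR adjusted p = 0.0499). The proteases with the highest CPM in the list were *Ctsd* (7016 to 13864 CPM, 0.98, edgeR adjusted p = 0.0774), which cleaves prosaposin, *Ctsb* (5057 to 9104 CPM, 0.85, adjusted p = 0.0829) and *Ctsl* (1741 to 2093 CPM, 0.27, adjusted p = 0.701), and none of these 3 was called by edgeR, whereas DESeq2 called *Ctsd* (adjusted p = 0.00352) and *Ctsb* (0.0065). *Gpr37* and *Gpr37l1*, receptors proposed for secreted prosaposin and named here after their values were seen, had lower means in HPβCD infarcts. Their log2 fold changes were -2.04 (edgeR adjusted p = 0.166) and -1.70 (adjusted p = 0.0694), both passed the DESeq2 threshold (adjusted p = 0.0294 and 0.00217), and the groups did not overlap for either.

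Sphingolipid genes outside the lysosome showed 0 calls by edgeR in either direction. Of 17 tested genes for breakdown outside the lysosome, 11 were above 0 and 6 below, with a median of 0.09. DESeq2 called 1 of the 17 higher and 3 lower, and 7 had an unadjusted edgeR p under 0.05. Of 32 tested genes of sphingolipid synthesis, 18 were above 0 and 14 below, with a median of 0.17. DESeq2 called 5 of the 32 higher and 3 lower, and 10 had an unadjusted edgeR p under 0.05. Over all genes tested, edgeR called 1.17% higher and 0.774% lower, so 0 calls in these lists is near that share. Of all genes, DESeq2 called 6.1% higher and 11.4% lower, and 27.8% had such an unadjusted p. The genes with the highest CPM were *Plpp3* (0.55), *Enpp2* (-0.65) and *Sgpl1* (0.60), the sphingosine 1-phosphate lyase, in the former list. They were *Degs1* (0.63), *Cers2* (0.96) and *Cert1* (0.30) in the latter, with edgeR adjusted p-values of 0.0708 to 0.406 for these 6 genes, of which DESeq2 called *Plpp3*, *Degs1* and *Cers2* higher and *Enpp2* lower.

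**Figure D4:**
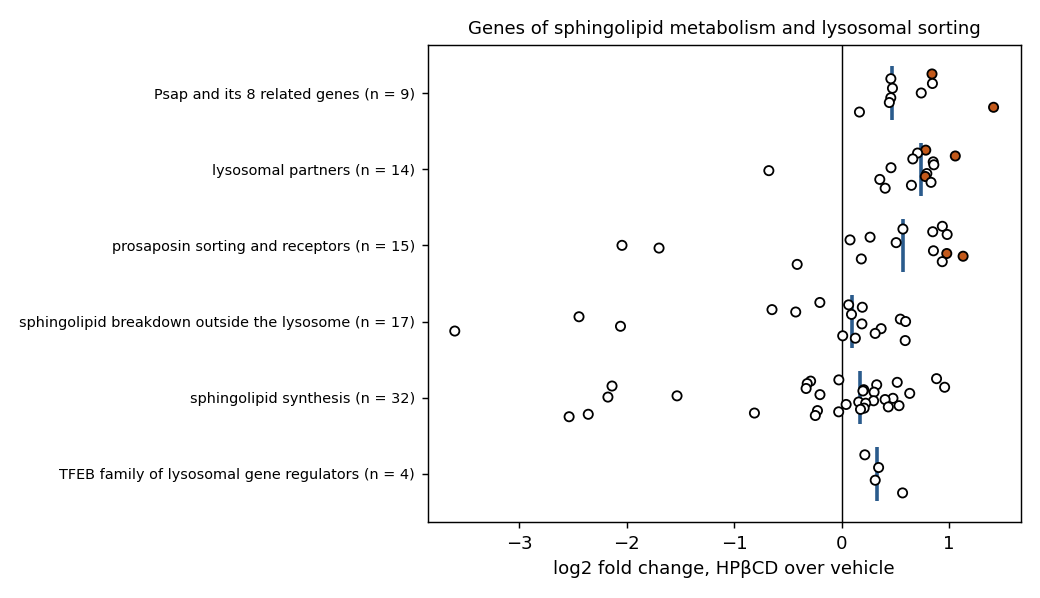
Log2 fold change (HPβCD over vehicle, edgeR) of every tested gene in 6 lists, filled where the adjusted p was under 0.05, with a blue line at each median. The 9 genes have a median of 0.47 and the 14 partners 0.74, and the lists of breakdown outside the lysosome (0.09) and synthesis (0.17) are centred near 0.

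Cell type markers moved with the treatment groups and with single libraries. Summed CPM of 10 foamy macrophage markers ranged from 8930 to 15782 in vehicle and from 19604 to 33406 in HPβCD infarcts, and 1 of the 10 was called higher by edgeR and 7 by DESeq2 (background 1.17% and 6.1%). In 5 of the 10 the groups did not overlap (background 8.77%). *Spp1* (log2 fold change 0.09), *Cd36* (0.54) and *Lpl* (-0.21) were called by neither test. *Gpnmb*, at position 3 of the genes that tracked *Psap*, averaged 4154 CPM of a mean sum of 12529 CPM in vehicle infarcts. In HPβCD infarcts it averaged 10803 of 25421 CPM. In the sum, as for *Psap*, vehicle animal 1 was the lowest library and HPβCD animals 3 and 4 were the highest and lowest of their group. *Psap* amounted to 37.3% to 44.3% of this sum in vehicle and 46.9% to 57% in HPβCD infarcts, which did not overlap. For *Arsa* the same proportion was 0.235% to 0.366% in vehicle and 0.216% to 0.296% in HPβCD infarcts, with overlap, and for *Gm2a* it was 2.27% to 3.24% and 1.24% to 1.99%, lower in HPβCD. These proportions use CPM without division by length, so they compare the groups and not the levels of different genes. The part of these markers in the results was not tested.

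Other marker sums differed too. The sum of 8 fibroblast markers ranged from 2544 to 6402 CPM in vehicle and from 9221 to 10143 CPM in HPβCD infarcts. That of 9 oligodendrocyte markers ranged from 1672 to 5281 and from 379 to 2273 CPM, and that of 8 astrocyte markers from 2643 to 9395 and from 953 to 2684 CPM. *Slc1a2* alone held 3755 of 7365 CPM of the astrocyte sum in vehicle animal 1 and 7431 of 9395 CPM in vehicle animal 3. Of the 8 astrocyte markers 7 had a log2 fold change below 0. DESeq2 called 5 of them lower, against 11.4% of all genes. The sum for 9 B lymphocyte and plasma cell markers was 1474 to 3052 CPM in vehicle and 362 to 673 CPM in HPβCD infarcts. The sums for 10 general macrophage markers (7410 to 17117 and 17245 to 24925 CPM), 8 microglia markers (590 to 1161 and 814 to 1246 CPM), 6 endothelial markers (501 to 533 and 488 to 775 CPM) and 8 T lymphocyte markers (115 to 174 and 96.6 to 244 CPM) are given for comparison. Most of the general macrophage sum was *Lyz2* alone, at 6153 to 15352 CPM in vehicle and 15494 to 23285 CPM in HPβCD libraries. Of these 10 markers, 6 had a log2 fold change above 0 and 4 below. edgeR called 0 of them and DESeq2 called 3 higher, against 1.17% and 6.1% of all genes called higher. No marker in any list was at 0 in all libraries. The part of these cell types in the results was not tested.

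Neuronal transcripts set vehicle animals 1 and 3 apart. The sum of 10 neuron markers was 992 and 6138 CPM in these animals and 9.9 to 84.8 CPM in the other 6 libraries. Without these animals all 9 log2 fold changes stayed above 0, and edgeR called 1 of the 9, *Arsa* (0.76, adjusted p = 0.044), whereas *Psap* stood at 1.25 (adjusted p = 0.0521). Of all 15066 genes tested in that fit, 73 were called higher and 129 lower. The estimate of *Asah1* fell to 0.16, that of *Gla* to 0.26 and that of *Galc* to 0.56. That of *Smpd1* was higher, at 0.37, as vehicle animal 3 had its highest value. In 6 of the 9 genes all HPβCD values exceeded those of vehicle animals 2 and 4. With only 2 vehicle values such a separation is easier to reach, and its share over all genes was not computed.

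**Figure D5:**
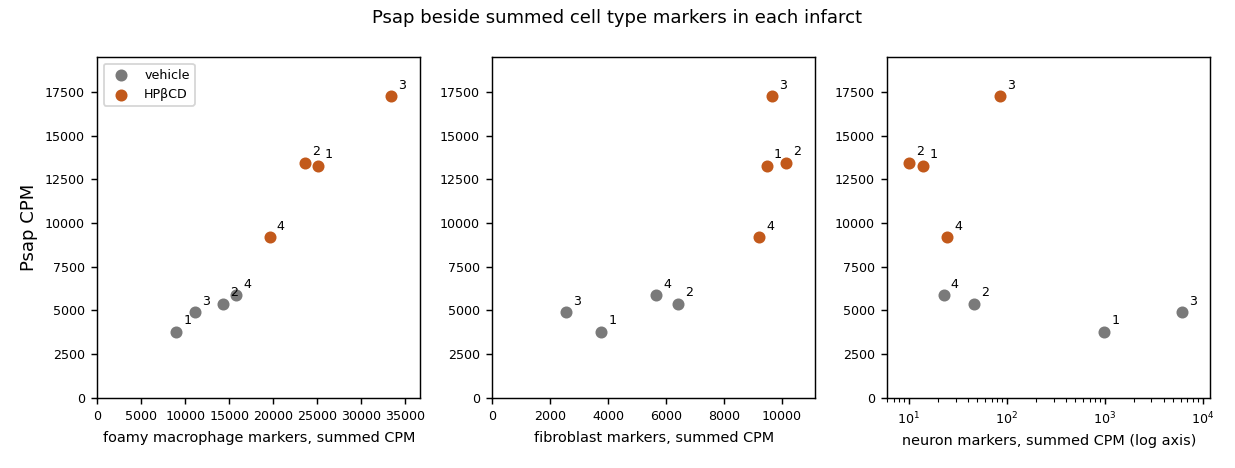
*Psap* CPM (vertical axes) against the summed CPM of foamy macrophage, fibroblast and neuron markers (horizontal axes, the last on a log scale) in the 4 vehicle (grey) and 4 HPβCD (orange) infarcts, numbered by animal. HPβCD libraries lie above vehicle libraries in *Psap* and in the first 2 marker sums, and vehicle animals 1 and 3 stand at 992 and 6138 CPM of neuron markers.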

How the data were processed

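Infarct RNA from 4 vehicle-treated and 4 HPβCD-treated mice was sequenced from strand-specific libraries, paired-end. The authors trimmed reads with Trimmomatic 0.32, aligned them to GRCm38 with STAR 2.5.2b and counted them per gene with htseq-count. The version, strand option and annotation of the counting are not given in the sources used here. The deposited values are raw counts per gene and library. Lines for unassigned reads (26.6% to 36.6% of a library) were left out. Symbols were matched for 45143 of 46078 identifiers, and positions and lengths came from GENCODE M21 on GRCm38. Groups and animal numbers came from the labels, which give no batch.

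Counts were tested with edgeR 4.0.16 in R 4.3.3 (robust quasi-likelihood, TMM factors, filterByExpr, no covariate), with Benjamini-Hochberg adjustment over 14736 genes and a threshold of 0.05. DESeq2 1.42.0 and limma 3.58.1 were alternatives, with other scalings and filters, a thinned set, a replicate block and fits leaving out animals. The authors also used DESeq2, in a version not given in the sources used here. The code was tested on simulated data. No library pair agreed within sampling noise (chi-square per degree of freedom at least 20.3). The 9 genes and all lists were chosen with earlier results of these data known. From the pathway lists, called genes and the 3 with the highest mean CPM are named, and from the genes nearest to *Psap* the first 5. Some genes of the lists that this rule selects are not reported here.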

Additional observations from a re-analysis of the deposited data

Results flagged for a closer look

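In HPβCD animal 4 the log2 ratio of *Galc* to *Psap* was -4.96, whereas the other HPβCD animals lay between -5.47 and -5.42. The gap to the nearest animal was 0.897 of the range of the group, above Dixon's 95% critical value for 4 samples. Among 54 groups searched this was the only one, and chance flags about 1 in 20 groups.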

How the results depend on the processing

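All 9 log2 fold changes stayed above 0 in all 17 alternative fits (153 of 153 estimates). Of the calls on single members, 16 were lost, 7 were gained and 130 stayed on the same side of the threshold. The number of members called higher, 2 by edgeR, was 5 by DESeq2 and 6 by limma-voom with sample weights. It was 1 without the robust dispersion, 1 without vehicle animals 1 and 3, and 0 with library totals alone as scaling. With library totals alone 4 of the 9 had an unadjusted edgeR p under 0.05, as had 4029 of the 14736 genes tested. Leaving out 1 animal gave 0 to 2 members. The number was 0 by edgeR without vehicle animal 1 or 4 or HPβCD animal 1, 2 or 3. In these fits 5 to 7 members had an unadjusted p under 0.05, as had 2922 to 4216 of the 14845 to 15059 genes tested. Over all genes the count of 287 became 2911 by DESeq2, 3232 by limma-voom, 98 without the robust dispersion, 11 with library totals alone, and 0 to 629 when 1 animal was left out. It was 0 without vehicle animal 1 or 4 or HPβCD animal 2 or 3 by edgeR (2922 to 4216 genes at an unadjusted p under 0.05) and 4 without HPβCD animal 1. Omitting vehicle animal 2 gave 556 and omitting vehicle animal 3 gave 629. The causes were not tested. With the animal number as a replicate block, 9 genes and 0 members were called by edgeR (3478 genes and 7 members at an unadjusted p under 0.05). The numbers were not taken as pairs, since the correlations of deviations of same-numbered animals were -0.257, 0.244, 0.329 and 0.097. The smallest adjusted p of any gene by edgeR was 0.0222.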

Other observations

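Pairs of helper and enzyme that work together, chosen after their values were seen, were compared within each library as log2 ratios of counts. The ratio of *Hexa* (the α chain of β-hexosaminidase A) to *Gm2a* (its GM2 activator) was 0.10, 0.42, 0.32 and 0.19 in vehicle animals 1 to 4 and 0.54, 0.62, 0.97 and 0.46 in HPβCD animals 1 to 4. The groups did not overlap, and HPβCD animal 3 was the highest. The ratio of *Glb1* to *Ctsa*, whose products share a complex with sialidase, was -1.75 ± 0.17 in vehicle and -1.73 ± 0.10 in HPβCD infarcts. That of *Neu1* to *Ctsa* varied more within HPβCD infarcts, from -2.34 in animal 3 to -1.23 in animal 4.

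In the list of sphingolipid synthesis, 3 glycolipid genes were picked after their values were seen because their means were lower in HPβCD infarcts. They do not stand for the list, in which 18 genes were above 0 and 14 below. *Ugt8a*, which makes galactosylceramide, averaged 46.7 ± 27.4 CPM without and 8.03 ± 9.54 CPM with HPβCD (SD, n = 4 each; edgeR adjusted p = 0.184, DESeq2 0.0978). *Gal3st1*, which sulfates it to sulfatide, averaged 2.56 ± 1.48 and 0.552 ± 0.544 CPM (edgeR adjusted p = 0.0976, DESeq2 0.0203). *St8sia1*, the GD3 synthase, averaged 20.1 ± 17.2 and 3.92 ± 0.525 CPM, without overlap between the groups (edgeR adjusted p = 0.0624, DESeq2 0.000376). The summed oligodendrocyte, astrocyte and neuron markers also had lower means in HPβCD infarcts (1112 against 3243, 1700 against 5853 and 33.2 against 1800 CPM). For the neuron sum this rested on vehicle animal 3 (6138 CPM) and animal 1 (992 CPM). Vehicle animals 2 (46 CPM) and 4 (22.5 CPM) fell inside the HPβCD range of 9.93 to 84.8 CPM. The astrocyte sum was also highest in vehicle animals 3 (9395 CPM) and 1 (7365 CPM), then 4 (4009 CPM) and 2 (2643 CPM). *St8sia1* was likewise highest in vehicle animal 3 (44.9 CPM), then animal 1 (18.5 CPM), animal 4 (9.79 CPM) and animal 2 (7.32 CPM). The part of these markers in the values of the 3 genes was not tested.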
